A study of Mus musculus with 8 samples.

Results

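The replication-dependent histone cluster genes were the 68 genes, of 25574 in the expression table, whose symbols start with Hist1h, Hist2h, Hist3h or Hist4h. They comprised 6 linker H1, 19 H2A, 18 H2B, 12 H3 and 13 H4 genes. In the GRCm38 mouse genome, 55 lie on chromosome 13, 10 on chromosome 3, 2 on chromosome 11 and 1 on chromosome 6. The question was whether their transcripts differed between the non-polysomal (NP) and polysomal (P) RNA of maturing oocytes, and whether the linker H1 genes differed from the 62 core genes. No histone gene passed the threshold for a difference. The 4 linker H1 genes with detectable transcripts all had lower FPKM (fragments counted per length of the gene and depth of the library) in the P dataset on average, and Hist1h1e had a mean of 159 FPKM in NP against 14.1 in P. This direction was also the commoner 1 among all genes tested, of which 71.4% had a fitted level lower in P. The core genes had no common direction, and their summed level in P depended on a single library.

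The core histones H2A, H2B, H3 and H4 form the octamer around which DNA is wrapped, and linker H1 binds where the DNA enters and leaves this particle. In dividing somatic cells the cluster genes are expressed in S phase, and their mRNAs end in a conserved stem-loop in place of a poly(A) tail. Stem-loop binding protein (Slbp) binds this structure and is needed for the processing, stability and translation of the mRNA. A fully grown oocyte has stopped DNA replication and transcription, and it carries stored histone mRNA for use during maturation and in the early embryo. Oocytes also make their own linker histone, encoded by H1foo, which is not a cluster gene.

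The 8 libraries were made from oocytes of 8 weeks old CD1 mice, an outbred stock, that had been primed with 5 IU pregnant mare serum gonadotropin 46 h before collection. Oocytes were held in the germinal vesicle stage with IBMX, an inhibitor of phosphodiesterases, released from it for 180 min to reach nuclear envelope breakdown (NEBD), and exposed to 0.1 mg/mL cycloheximide for 10 min, which holds ribosomes on the mRNA. Each profile came from 200 pooled oocytes whose lysate was separated on a sucrose gradient into 10 fractions. Fractions 2 to 5 of the profiles were pooled as NP, which includes single ribosomes on mRNA, and fractions 6 to 10 as P, with 4 biological replicates of each. The first fraction was left out. The paper could not exclude that some stored mRNA, preferentially short transcripts, was lost with it, but held this to be unlikely. No untreated or input library was among the 8. Both datasets shared every treatment, and they differed in the gradient fractions alone. RNA depleted of rRNA was reverse transcribed with random and oligo(dT) primers and then amplified, so transcripts without a poly(A) tail could be captured. FPKM is a share of each library scaled by gene length. More of a transcript in a fraction and less of all other mRNA there cannot be told apart.

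The numbers to which the libraries had been scaled, recovered from the steps between FPKM values, were 1299390 to 7594620 in NP and 2677947 to 4699335 in P. A single step of a 400-base gene was worth 0.329 to 1.92 FPKM in NP and 0.532 to 0.934 FPKM in P. All 12 oocyte markers were detected, with summed levels of 6517 to 13320 FPKM in NP and 8366 to 32718 FPKM in P. The 18 granulosa and cumulus cell markers summed to 15.3 to 141 FPKM in NP and 21.9 to 64.0 FPKM in P, and 9 passed the filter, while Fshr, Amhr2 and Foxl2 were at or near 0. The highest values among them were those of Cyp19a1 (75.2 FPKM in NP4 and 62.6 FPKM in P2), Nr5a2 (61.4 FPKM in NP3 and 35.9 FPKM in P3) and Cyp11a1 (46.4 FPKM in NP4 and 17.9 FPKM in P4). Of 8 blood cell markers 5 were found, summing to 0 to 35.9 FPKM in NP and listed at 0 in every P library, with Cd68 as the marker above 0. The part of these cells in the histone values was not tested. The libraries P4 and NP4 stood apart in the H4 genes. P4 held the highest P value for 12 of 13 H4 genes and NP4 the highest NP value for 10 of 13, against 22.0% and 22.1% of all genes tested. Over all core genes above 0 these counts were 27 of 52 and 34 of 57. They were lower in H2B, at 8 of 18 each, and in H3, at 1 of 10 and 4 of 10. P4 was not high in histone genes alone, since it also had the highest P sum of the oocyte markers, 32718 FPKM.

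The histone stem-loop was searched on the coding strand in the 300 bases after each stop codon, in the sequence of GRCm38. It was found with at most 1 mismatch to its consensus in 66 of 67 genes with a coding sequence, and exactly in 52. It began 21 to 58 bases after the stop codon, with a median of 30.5. The exact loop was in 0 of 19070 other genes, and 3 of them (H2afx, Mex3a and Phf6) had it with at most 1 mismatch. Of the 9 forms found, the commonest was shared by 41 genes and by all 4 detected H1 genes. The loops of the 4 detected H1 genes and of 4 core genes described singly are shown 5′ to 3′ on the coding strand, since most genes of the group share this element. The 16 bases of the loop are in capitals, with 5 flanking bases on either side.
Hist1h1a: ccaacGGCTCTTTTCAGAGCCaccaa
Hist1h1c: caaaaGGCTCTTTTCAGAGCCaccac
Hist1h1d: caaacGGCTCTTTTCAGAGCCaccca
Hist1h1e: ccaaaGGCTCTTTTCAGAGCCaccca
Hist1h2aa: aaaaaGGCTCTTTTCAGAGCCacctt
Hist1h2ba: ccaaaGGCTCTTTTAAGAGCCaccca
Hist1h2bc: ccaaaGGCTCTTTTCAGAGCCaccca
Hist1h4c: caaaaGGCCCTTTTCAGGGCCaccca

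The capitals lie at chr13:23764392-23764407 (plus strand) for Hist1h1a, chr13:23739512-23739527 (plus) for Hist1h1c, chr13:23555787-23555802 (plus) for Hist1h1d and chr13:23621782-23621797 (minus) for Hist1h1e. They lie at chr13:23934891-23934906 (plus) for Hist1h2aa, chr13:23933730-23933745 (minus) for Hist1h2ba, chr13:23684647-23684662 (plus) for Hist1h2bc and chr13:23698089-23698104 (minus) for Hist1h4c. Each of the 8 genes has a single coding exon, and the loops of Hist1h2aa and Hist1h2ba lie past the end of the gene model in the expression table. The H1 genes had no other locus at least 90% identical over 150 bases. By contrast, 41 core genes had another locus at least 98% identical over that length, so reads of these genes could be placed on a copy. The treatment of such reads is not stated in the sources used here.

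The group held exceptions to its name. Hist2h2be, an H2B variant known from olfactory neurons, had no such loop in the window. Hist1h2al is annotated as a processed pseudogene without a coding sequence. Hist1h1t, Hist1h2aa and Hist1h2ba are germline-type genes, best known from the testis. Hist1h1b, Hist1h1t, Hist1h2ab, Hist1h2ag, Hist1h2ak, Hist1h3h and Hist1h3i, 7 genes in all, were listed at 0 in all 8 libraries. A mean above 0.1 FPKM was reached by 55 genes in NP, by 52 in P and by 49 in both. The 58 genes past this filter in at least 1 dataset were compared between P and NP, 4 of them H1 and 54 core, and 6 entered through NP alone and 3 through P alone.

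Linker H1 was described first. Hist1h1e (chr13:23621755-23622502, minus strand) measured 208, 126, 198 and 105 FPKM in NP1 to NP4, and 0, 7.92, 2.11 and 46.4 FPKM in P1 to P4. All NP libraries therefore lay above all P libraries, and the P library nearest to them was P4. These values correspond to 497, 122, 1076 and 597 recovered steps in NP, and to 0, 19, 7 and 93 in P. The means were 159 ± 51.4 FPKM in NP and 14.1 ± 21.8 FPKM in P (SD, n = 4 each), a ratio of 11.3. The log2 fold change of P over NP, fitted by limma on log2(FPKM + 1), was −4.67 (SE 0.97), with an unadjusted p of 0.000289 and a Benjamini-Hochberg adjusted p of 0.344. The gene passed the threshold of 0.1 without P replicate 4, at an adjusted p of 0.0564 and a log2 fold change of −5.67. It also did so when limma's voom was run on the recovered steps, at an adjusted p of 0.0818 and a log2 fold change of −5.51. That fit adjusted over 6696 genes in place of 14292, so its adjusted p cannot be set directly against the main one. Over 16 alternative fits the adjusted p ranged from 0.0564 to 0.731 and the log2 fold change from −5.67 to −3.12, the latter with a pseudocount of 10. In annotation M21 of GENCODE an exon of Hist1h2be overlaps 450 bases of Hist1h1e, but in the gene models of the expression table the spans of both genes do not overlap.

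**Figure D1:**
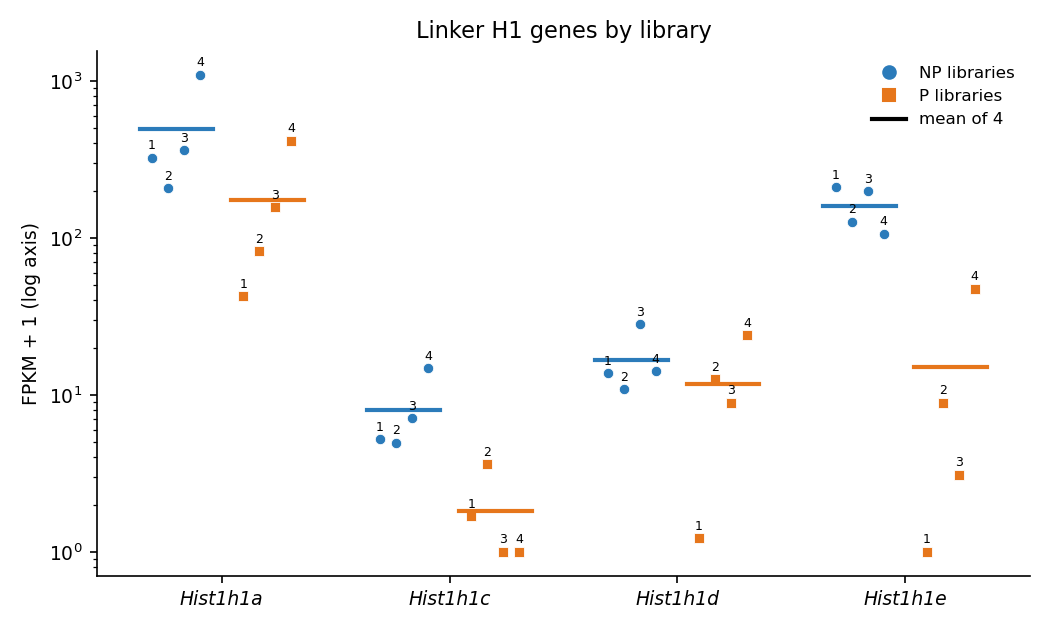
FPKM + 1 of the 4 detected linker H1 genes (log axis) in each NP (circles) and P (squares) library, numbered by replicate, with bars at the mean of 4. For Hist1h1e and Hist1h1c all NP libraries lie above all P libraries, while those of Hist1h1a and Hist1h1d overlap.

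Hist1h1a (chr13:23763668-23764414, plus strand) was the most abundant H1 gene in every library, with 58.9% to 97.9% of the H1 FPKM. It measured 322, 205, 359 and 1093 FPKM in NP1 to NP4, and 41.3, 81.4, 155 and 415 FPKM in P1 to P4. P4 overlapped the NP range and the other 3 P libraries lay below it. Each P library was lower than the NP library of the same number. The log2 fold change was −1.71 (SE 0.74, limma adjusted p = 0.479). Hist1h1c (chr13:23738807-23740366, plus strand) was low, at 4.22, 3.95, 6.08 and 13.8 FPKM in NP, and at 0.682, 2.60, 0 and 0 FPKM in P. Its libraries did not overlap, and its log2 fold change was −2.20 (SE 0.82, limma adjusted p = 0.421). The P values of Hist1h1c rest on 5, 13, 0 and 0 steps. Hist1h1d (chr13:23555032-23558852, plus strand) measured 12.7, 9.87, 27.2 and 13.1 FPKM in NP, and 0.223, 11.6, 7.89 and 23.1 FPKM in P. Its datasets overlapped, and the log2 fold change of −1.04 (SE 0.93) had a limma adjusted p of 0.674. None of the 4 genes changed sign in any of the 16 alternative fits, but the log2 fold change of Hist1h1d was −0.085 with each library centred on its median and −0.17 without P replicate 1.

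The makeup of H1 itself also differed between libraries. Hist1h1e made up 38.0%, 36.5%, 33.5% and 8.58% of the H1 FPKM in NP1 to NP4, and 0%, 7.65%, 1.28% and 9.57% in P1 to P4. NP4 therefore lay within the P range, and the other 3 NP libraries lay above it.

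Across the 58 histone genes compared, 0 passed an adjusted p of 0.1 in limma in either direction. Among all 14292 genes tested, 0.021% passed as higher in NP and 0% as higher in P. At an unadjusted p below 0.05, 5 histone genes were higher in NP, against 9.47% of all genes tested, and 0 were higher in P, against 0.476%. The 5 were Hist1h1e, Hist1h1c, Hist1h1a, Hist1h2bc and Hist1h2bg, so 3 of 4 H1 genes and 2 of 54 core genes. Hist1h2bg was chosen for naming after its values were seen. All NP libraries lay above all P libraries for Hist1h1e, Hist1h1c and Hist1h2bc, 3 genes against 5.92% of all genes tested, and the reverse held for 0 genes, against 0.357%. A negative fold change was found for 38 of the 58 genes (65.5%), against 71.4% of all genes tested. These shares of the 58 genes are near the background, and the median log2 fold change was −0.27 for the histone genes and −0.39 for all genes.

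The H2A genes were led by a germline-type gene. Hist1h2aa encodes a testis-type H2A, and its start lies close to that of its neighbour Hist1h2ba on the other strand. It measured 529, 187, 435 and 664 FPKM in NP1 to NP4, and 102, 102, 480.5 and 6411 FPKM in P1 to P4. P4 was far above every other library, while P1 and P2 were below all of NP. The gene held 73.2% to 97.0% of the H2A FPKM in every library. Its log2 fold change was 0.05 (SE 1.07, limma adjusted p = 0.988), and −1.26 without P replicate 4.

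The other H2A genes were lower. Hist1h2al measured 8.14 to 106 FPKM in NP and 8.44 to 70.1 FPKM in P, with a log2 fold change of −0.90 (SE 0.87, limma adjusted p = 0.689). Hist2h2aa1 measured 1.33 to 23.2 FPKM in NP and 0 to 44.6 FPKM in P. Its sequence-identical neighbour Hist2h2aa2 measured 1.43 to 73.0 FPKM in NP and 0.395 to 70.0 FPKM in P. Both were highest in NP4 and P4, cannot be told apart by reads within the coding sequence, and overlap transcripts on the other strand in the table. The remaining 15 H2A genes had means of at most 7.78 FPKM, and the log2 fold changes of the 9 compared ran from −1.19 to 1.24. The median over the 13 H2A genes compared was −0.48. Of these 13, 8 had a mean above 0.1 FPKM in P, and the others passed the filter through NP alone, which favours a negative direction.

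Hist1h2ba, which encodes testis-type H2B, was the most abundant H2B gene in every library except NP1. It measured 238, 69.2, 707 and 899 FPKM in NP1 to NP4, and 293, 127, 76.9 and 266 FPKM in P1 to P4. NP3 and NP4 were above all P libraries and NP2 below all of them, so the datasets overlapped. Its log2 fold change was −0.94 (SE 0.79, limma adjusted p = 0.661). Hist2h2be was at 1314 FPKM in NP1 and between 0 and 5.50 FPKM in the other 7 libraries. That single value rests on 10985 steps and made up 60.4% of the H2B FPKM in NP1. The gene's log2 fold change was −1.65 (SE 1.77, limma adjusted p = 0.713), and 0.66 without NP replicate 1.

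Hist1h2bc (chr13:23684199-23692488, plus strand) was the H2B gene with the largest fitted log2 fold change. It measured 182, 16.7, 36.0 and 17.5 FPKM in NP1 to NP4, and 10.4, 1.70, 1.83 and 4.06 FPKM in P1 to P4. The NP libraries all lay above the P libraries, with NP1 far above the rest. The log2 fold change was −3.08 (SE 0.89), with an unadjusted p of 0.00391 and a limma adjusted p of 0.405. Its coding sequence has 9 other loci at least 98% identical, which makes its level uncertain. Hist1h2bg, with 5 such loci, measured 9.12, 1.25, 4.22 and 13.4 FPKM in NP and 0, 0, 0.364 and 3.02 FPKM in P. Its datasets overlapped, and the log2 fold change was −2.07 (SE 0.87, limma adjusted p = 0.470).

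The other H2B genes had no common direction. Hist1h2bk measured 27.3 to 175 FPKM in NP and 12.0 to 259 FPKM in P, and was highest in P4. Hist1h2bm went the other way across libraries, with 229, 46.5, 49.4 and 0.346 FPKM in NP1 to NP4, and 77.6, 73.7, 57.3 and 1.96 FPKM in P1 to P4. It was thus near 0 in NP4 and P4, where most H4 genes were highest. Hist3h2ba was likewise lowest in those libraries, at 0 FPKM in NP4 and 0.600 FPKM in P4, against 3.71 to 14.6 FPKM in the other NP and 7.18 to 25.7 FPKM in the other P libraries. Hist1h2bf had log2 fold changes of 0.37, Hist1h2bh of 1.004, Hist1h2bn of −0.44 and Hist2h2bb of −0.97, and limma adjusted p-values of these 4 genes were 0.659 to 0.833. Hist2h2bb and its neighbour Hist2h3b overlap the same transcript on the other strand. The median over all 18 H2B genes was −0.48, and the 7 H2B genes not described singly had means of at most 6.12 FPKM.

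The H3 genes were the least abundant class in every library except P3, with summed levels of 4.17 to 73.0 FPKM over the 8 libraries. In P3 the H4 sum was lower, at 12.7 FPKM. Every H3 gene has 2 to 7 other loci at least 98% identical, which makes the H3 levels and this ranking uncertain. Hist2h3b alone had a mean above 10 FPKM, at 4.49, 0, 40.0 and 9.71 FPKM in NP1 to NP4, and 0, 13.4, 58.5 and 34.4 FPKM in P1 to P4. Its values were highest in NP3 and P3, and its log2 fold change was 0.91 (SE 1.33, limma adjusted p = 0.776). The other 11 H3 genes had means of at most 3.21 FPKM. The median over the 10 H3 genes compared was 0.21, and 3 of the 10 had a negative fold change. Hist1h3a, Hist1h3d and Hist1h3g, with log2 fold changes of 0.36, 0.37 and 0.35, passed the filter through P alone. Hist1h3c, at −0.26, passed it through NP alone. The filter itself favours these directions, so the class median gives no direction. Many of the H3 values rest on fewer than 10 steps, and small differences of these H3 genes were not detectable at this depth.

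The H4 genes measured very differently between replicates. Hist1h4c measured 22.2, 7.79, 43.8 and 522 FPKM in NP1 to NP4, and 6.46, 75.0, 0 and 4084 FPKM in P1 to P4. NP4 and P4 were by far the highest of their datasets, and the remaining libraries overlapped. Its log2 fold change was −0.26 (SE 1.96, limma adjusted p = 0.959). Hist1h4f measured 0 to 8.08 FPKM in NP, 0 to 1.09 FPKM in P1 to P3, and 893 FPKM in P4. Its log2 fold change of 1.23 (SE 1.80, limma adjusted p = 0.778) was −1.14 without P replicate 4.

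The same 2 libraries led for the next H4 genes. Hist1h4a had 209 FPKM in NP4 and 488 FPKM in P4, against 13.7 to 33.7 FPKM in the other NP and 1.39 to 22.3 FPKM in the other P libraries. Hist1h4b had 303 and 551 FPKM there, against 0 to 14.5 FPKM and 0.458 to 2.54 FPKM. Hist1h4h had 209 and 275 FPKM, against 0 to 4.62 FPKM and 0 to 2.62 FPKM. The transcript 4930558J22Rik, which overlaps Hist1h4b on the other strand, showed 124 FPKM in NP4 and 219.8 FPKM in P4, and at most 3.25 FPKM elsewhere, so reads of both could not be told apart. Hist1h4d departed from this, with 36.0 FPKM in NP3 and 0.670 FPKM in NP4. Hist2h4 was more even, at 2.34 to 25.4 FPKM in NP and 1.59 to 6.97 FPKM in P. The median log2 fold change over all 13 H4 genes was −0.17.

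**Figure D2:**
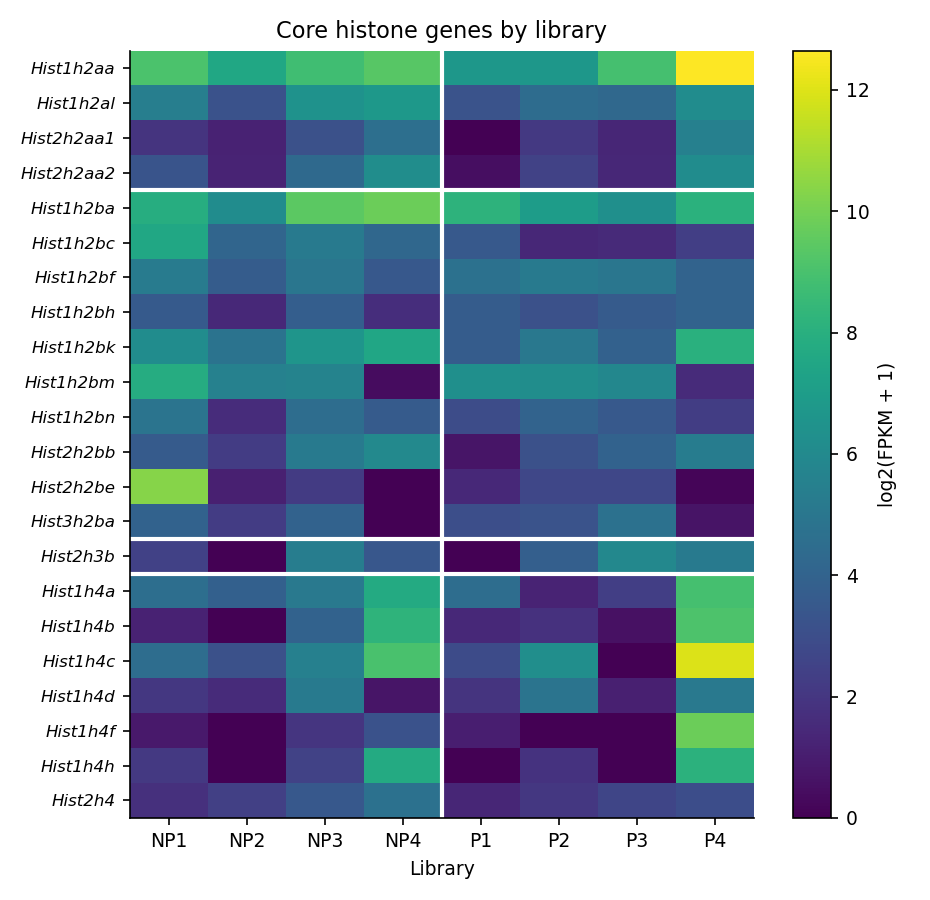
log2(FPKM + 1) of the 22 core histone genes described singly by the naming rule, with libraries in columns, NP left of the white line and P right of it, and the classes H2A, H2B, H3 and H4 from top to bottom. Hist1h2aa and Hist1h4c are brightest in P4, Hist2h2be is bright in NP1 alone, and Hist1h2bm is dark in NP4 and P4.

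Summed by class, the levels followed these single libraries. H4 summed to 56.2, 27.8, 160.4 and 1299 FPKM in NP1 to NP4, and 38.4, 114, 12.7 and 6368 FPKM in P1 to P4. P4 held 97.5% of the H4 sum over the P libraries and NP4 held 84.2% of that over the NP libraries. H2A summed to 202 to 907 FPKM in NP and to 137 to 6613 FPKM in P, with 89.3% of the P sum in P4. H2B summed to 2175, 193, 1027 and 1221 FPKM in NP, and to 451, 333, 259 and 644 FPKM in P. For the core classes together the mean in P was 1.85 times that in NP, and 0.415 times without NP4 and P4. The direction of the core sum thus turned when the libraries numbered 4 were left out, and P replicate 4 alone was enough for this (0.329 times).

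The sum over the H1 genes did not turn. It was 547, 344, 589.7 and 1225 FPKM in NP1 to NP4, and 42.2, 104, 165 and 485 FPKM in P1 to P4. The mean in NP was 3.40 times that in P, and 4.77 times without NP4 and P4. It was 6.53 times without P replicate 4 alone and 2.48 times without NP replicate 4 alone. P4 lay within the NP range, and the other 3 P libraries lay below it. For every replicate number the sum was lower in P than in NP, though the labels do not say that a number marks the same profile.

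**Figure D3:**
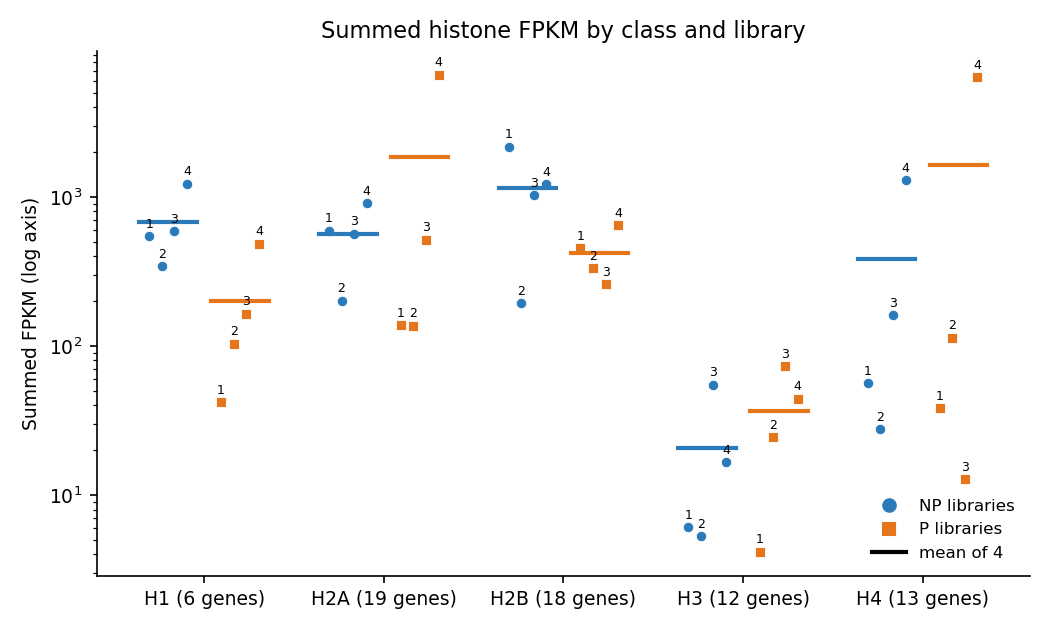
FPKM summed over the genes of each histone class (log axis) in each NP (circles) and P (squares) library, numbered by replicate, with bars at the mean of 4. Replicate 4 is the highest H4 library in both datasets, at 1299 FPKM in NP and 6368 FPKM in P, while 3 of 4 P libraries lie below all NP libraries for H1.

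Linker H1 was then set against the core genes. The median log2 fold change was −1.96 over the 4 H1 genes and −0.24 over the 54 core genes that passed the filter, a difference of −1.71, and it was −0.39 over all genes tested. All 4 H1 genes had a negative fold change, as did 34 of the 54 core genes (63.0%) and 71.4% of all genes tested. The H1 values ran from −4.67 to −1.04 and the core values from −3.08 to 1.24. The difference of the medians was −1.47 without Hist1h1e, −1.53 without core genes that have a near-identical copy, and −1.40 without NP4 and P4. Many core genes were low, and the scale of log2(FPKM + 1) understates the change of low genes. Over genes with a mean of at least 10 recovered steps, the core median was −0.50 and the difference −1.46. Centring each library on its own median moved the median over all genes by 0.96 on the log2 scale, from −0.39 to 0.57. Relative to the median over all genes, the H1 median was −1.57 and the core median 0.15, differences that centring cannot change because it shifts all genes of a library alike. With centring, 7 core genes had an unadjusted p below 0.05 as higher in P, against 19.0% of all genes tested in that fit. No p was computed for the H1 genes as a set, since they were chosen with earlier results known.

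**Figure D4:**
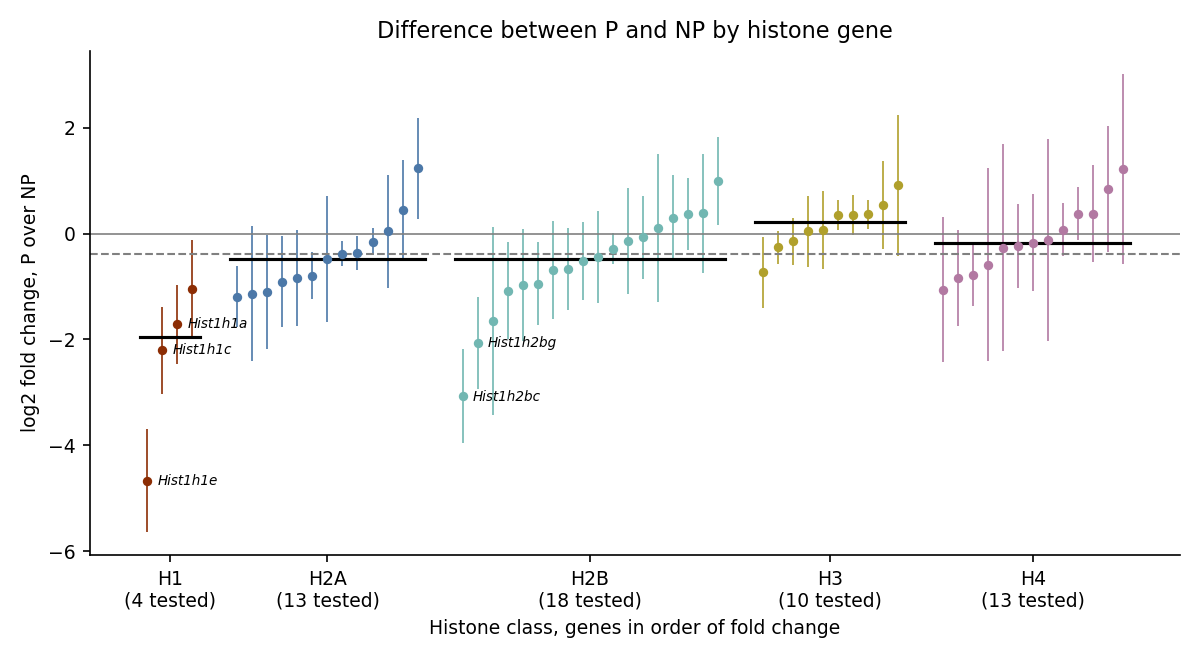
log2 fold change of P over NP (points, with bars of 1 SE) for the 58 histone genes compared, ordered within each class. Black lines mark the class medians and the dashed line the median over all genes, −0.39, and genes with an unadjusted limma p below 0.05 are named. The 4 H1 points all lie below the dashed line, and the core classes lie on both sides of it.

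As a share of all histone FPKM, H1 made up 16.2%, 44.6%, 24.6% and 26.2% in NP1 to NP4, and 6.27%, 14.5%, 16.1% and 3.43% in P1 to P4. The NP libraries all lay above the P libraries, but NP1 exceeded P3 by little. NP1 is the library with the single high value of Hist2h2be, and without that gene H1 made up 24.6% to 44.7% in NP and 3.43% to 16.2% in P. Without the H4 genes, which were high in P4, the ranges were 16.5% to 46.3% and 6.23% to 17.3% and overlapped. Without Hist1h1e they were 10.7% to 33.9% and 3.11% to 15.9%, which also overlapped. Over the histone genes without a copy at least 98% identical they were 18.6% to 50.4% and 3.58% to 19.6%, and overlapped too. The separation of the shares thus did not hold without H4, without Hist1h1e or without near-identical copies. All histone cluster genes together were 0.132% to 0.811% of the summed FPKM in NP, and 0.108% to 2.22% in P, with the highest value in P4.

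**Figure D5:**
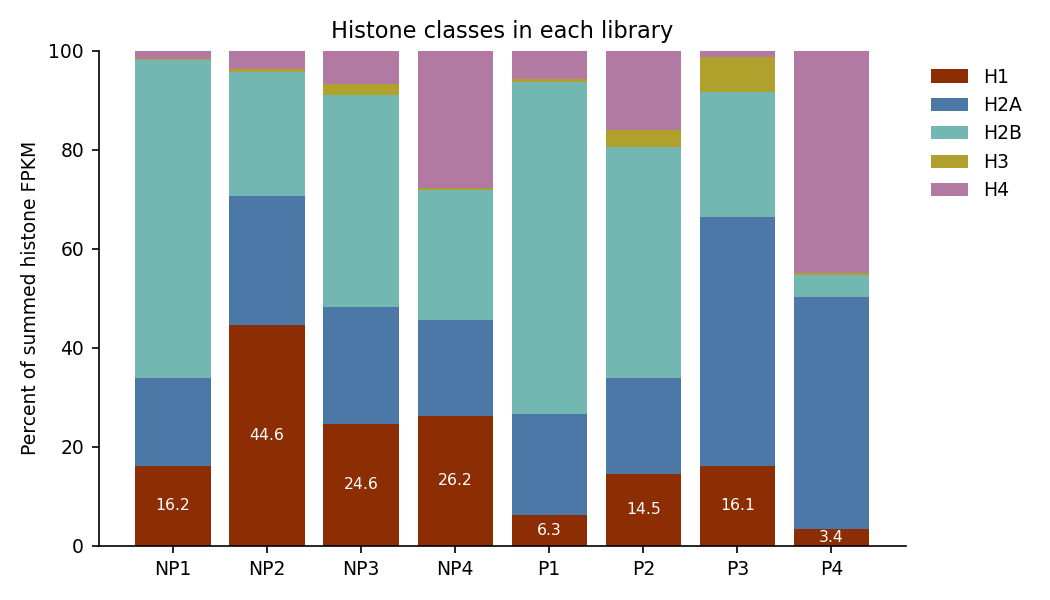
Percent of the summed FPKM of all histone cluster genes contributed by each class in each library, with the H1 percentage printed in its bar. H1 spans 16.2% to 44.6% in the NP libraries and 3.4% to 16.1% in the P libraries, and H4 fills 45.0% of P4.

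Genes that handle histone mRNA or histone proteins were compared in the same fit. In it, 9.47% of all genes tested had an unadjusted limma p below 0.05 as higher in NP and 0.476% as higher in P. At an adjusted p of 0.1 these shares were 0.021% and 0%, and the median log2 fold change over all genes was −0.39. Of 17 genes of histone mRNA metabolism, 16 passed the filter and 0 passed an adjusted p of 0.1 or an unadjusted p of 0.05 in either direction, with a median log2 fold change of −0.27. Slbp measured 65.8 to 100.0 FPKM in NP and 76.8 to 234 FPKM in P, with a log2 fold change of 0.79 (SE 0.57, limma adjusted p = 0.640). The log2 fold changes were −1.38 for Lsm10, a subunit of the U7 particle that cleaves histone pre-mRNA, −0.12 for Cpsf3, the cleaving enzyme, and −0.41 for Upf1, a helicase of histone mRNA decay. Of 20 histone chaperones, 19 were found and passed the filter, and 0 passed either threshold, with a median of −0.15. Npm2, the oocyte nucleoplasmin, measured 285, 743, 326 and 597 FPKM in NP1 to NP4, and 552, 166, 156 and 4606 FPKM in P1 to P4. It was thus also highest in P4, with a log2 fold change of 0.17 (SE 0.91), and the values of Rbbp7 and Nap1l4 were 0.13 and 0.46.

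Among 12 replication-independent histone genes 0 passed an adjusted p of 0.1, against 0.021% of all genes tested as higher in NP and 0% as higher in P. The median log2 fold change over the list was −0.40. H1foo, the oocyte linker histone, measured 2444, 1818, 1084 and 1075 FPKM in NP1 to NP4, and 2206, 1008, 472 and 923 FPKM in P1 to P4. Its datasets overlapped, with a log2 fold change of −0.60 (SE 0.59, limma adjusted p = 0.691), and its level per length exceeded the H1 cluster sum in every library except NP4, where the H1 sum was 1225 FPKM. H2afv, a variant of the H2A.Z type, was the list's only gene with an unadjusted limma p below 0.05. The log2 fold change of H2afv was −2.62 (SE 1.12, limma adjusted p = 0.471). Such an unadjusted p was found for 9.47% of all genes tested as higher in NP and 0.476% as higher in P. H3f3a and H3f3b, both encoding histone H3.3, had log2 fold changes of −0.23 and 1.22, with limma adjusted p-values of 0.872 and 0.530. H2afz, chosen for naming after its values were seen, was the member of the list whose P libraries all lay above its NP libraries. Such a separation was found for 0.357% of all genes tested. The log2 fold change of H2afz was 1.58 (SE 0.74, limma adjusted p = 0.505), so it did not pass the threshold.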

How the data were processed

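The authors used Trim Galore 0.4.1 and FastQC 0.11.5 on the paired-end reads, HISAT2 2.0.5 for alignment to GRCm38, and Seqmonk 1.40.0 to derive expression per gene. The values deposited by the authors are FPKM, scaled for the length of each gene and the depth of each library, without a log transformation. Libraries were assigned to NP and P by their titles, and no replicate was pooled. Columns of the authors' own comparisons, DESeq2 fold changes and p-values among them, were not used.

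P was compared with NP, 2-sided, on log2(FPKM + 1) by limma 3.58.1 under R 4.3.3, with moderated variances that follow a trend in expression. Genes entered if the mean of either dataset exceeded 0.1 FPKM, which left 14292, and p-values were Benjamini-Hochberg adjusted over all of these, at a threshold of 0.1. A fold change on this scale understates the change of low genes. The scripts were tested on simulated data with known changes. Whole steps were recovered from the FPKM values for 15357 of 15585 genes above 0 (98.5%). The sources used here do not state whether such a step stands for a fragment or a read. The cDNA was amplified without molecular identifiers, so steps do not count single molecules. Stem-loops were read from GRCm38 with the GENCODE M21 coding sequences, and copies were searched with blastn 2.17.0.

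The members and gene lists were chosen with earlier results of these data known. Named were all H1 genes, core genes with a mean above 10 FPKM in at least 1 dataset, genes passing limma's threshold or without overlap between datasets and with a mean above 1 FPKM in the higher one, and from each list Slbp, H1foo and up to 3 further genes with the highest mean. The lists were histone mRNA metabolism, histone chaperones, replication-independent histones, and markers of oocytes, of granulosa and cumulus cells and of blood cells. Alternatives were the pseudocount, the filter, quantile normalization, centring, a replicate block, ratios of arithmetic means, leaving out germline-type genes and leaving out each library. The fit on recovered steps, and the results without NP4 and P4, without near-identical copies, for well covered genes and without Hist1h1e, were added after seeing the data. The fit on recovered steps took genes whose annotated exon length or span gave whole steps. Histone genes also entered it with a length found by search, and other genes did not.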

Additional observations from a re-analysis of the deposited data

Results flagged for a closer look

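In a number of histone genes and classes, 1 of the 4 libraries of a dataset lay far from the other 3. This was found for 20 of 62 groups of 4 libraries examined, by Dixon's ratio of gap to range on FPKM without a log transformation. Its rate of about 1 in 20 by chance holds for normally distributed values, which FPKM need not follow. The flagged values were all high ones. Many genes were also named for a mean above 10 FPKM, which 1 high library can reach, and genes share libraries. The count is therefore no measure of an excess over chance. The library apart was P4 in 12 of them, NP4 in 5, NP1 in 2 and NP3 in 1. No explanation was tested.

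In P4 the H4 genes stood apart at 488 FPKM for Hist1h4a, 551 FPKM for Hist1h4b, 4084 FPKM for Hist1h4c, 893 FPKM for Hist1h4f and 275 FPKM for Hist1h4h, and the H4 sum at 6368 FPKM. The H2A and H2B genes apart in P4 were Hist1h2aa at 6411 FPKM, Hist2h2aa1 at 44.6 FPKM, Hist2h2aa2 at 70.0 FPKM and Hist1h2bk at 259 FPKM, and the H2A sum was apart at 6613 FPKM. Hist1h1e was the H1 gene apart in P4, at 46.4 FPKM. In NP4 these were Hist1h4a at 209 FPKM, Hist1h4b at 303 FPKM, Hist1h4c at 522 FPKM, Hist1h4h at 209 FPKM and the H4 sum at 1299 FPKM. Hist2h2be at 1314 FPKM and Hist1h2bc at 182 FPKM stood apart in NP1, and Hist1h4d at 36.0 FPKM in NP3.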

How the results depend on the processing

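The difference between the H1 and core medians kept its sign under all alternatives run, from −2.39 with voom on recovered steps to −1.09 with a pseudocount of 10. The number of genes called among all tested, 3 at first, was 5 with a pseudocount of 0.1 and with a filter at 1 FPKM, 1 with the replicate block, 95 with voom over 6696 genes, and 0 with a pseudocount of 10, without a filter, with quantile normalization and with centring. It was 0 to 5 when single libraries were left out. Histone genes called numbered 0 to 1 without single libraries and 1 with voom, in both cases Hist1h1e. Those with an unadjusted p below 0.05 as higher in NP were 3 with quantile normalization, 2 with centring and 3 to 8 without single libraries, against 4.04%, 1.24% and 7.51% to 10.9% of all genes tested in those fits. As higher in P they were 1 with quantile normalization and 7 with centring, against 2.55% and 19.0%. The core sum of P over NP was 0.329 to 2.37 without single libraries and 0.415 without NP4 and P4. Among 26 histone genes named and tested, 12 kept their direction in every fit and 14, all core genes, did not. The causes were not tested.

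Centring gave log2 fold changes of 0.053 for Hist1h2al, 0.48 for Hist2h2aa1, 0.016 for Hist1h2ba, 0.52 for Hist1h2bn, 0.84 for Hist1h4b, 0.70 for Hist1h4c, 0.37 for Hist1h4h and 0.12 for Hist2h4. Quantile normalization gave 0.24 for Hist2h2aa1, 0.18 for Hist1h2bn and 0.28 for Hist1h4b. A pseudocount of 10 gave −0.12 for Hist1h2bm and 0.45 for Hist1h4c, a pseudocount of 0.1 gave 0.32 for Hist1h4b, and voom gave −0.16 for Hist1h2aa. Without single libraries the values ran from −1.26 to 0.73 for Hist1h2aa, −1.57 to 0.27 for Hist2h2aa1, −1.37 to 1.25 for Hist1h2bm, −2.79 to 0.66 for Hist2h2be, −0.46 to 1.13 for Hist3h2ba, −0.022 to 2.16 for Hist2h3b, −2.08 to 1.52 for Hist1h4b, −2.50 to 1.501 for Hist1h4c, −1.14 to 2.13 for Hist1h4f and −2.46 to 0.96 for Hist1h4h.

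Same-numbered libraries deviated together with correlations of 0.139, 0.0518, 0.251 and 0.155 over 11374 genes. The same number was the best match for NP1, NP3 and NP4, while NP2 correlated better with P1 (0.136) than with P2. Seen from the P side, the same number was the best match for every P library. In the paper, NP and P were pooled from fractions of the same profiles, but the labels do not say that a number marks 1 profile. The main fit therefore did not take the samples as pairs, and it ignores any pairing that exists. With the replicate block, 6 histone genes had an unadjusted p below 0.05 as higher in NP, against 11.3% of all genes tested in that fit, and 0 passed the adjusted threshold.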

Other observations

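Of the 66 genes with a stem-loop, 24 have gene models that run at least 100 bases past it and 42 end within 100 bases of it. The median log2 fold change of P over NP was −0.52 over the 21 of the former that passed the filter and −0.17 over the 35 of the latter, described without a test. Over core genes alone the medians were −0.38 and −0.15. The shares with a negative fold change went the other way, at 61.9% of the 21 and 65.7% of the 35. Hist1h1c, Hist1h1d and Hist1h2bc belong to the former, with models that end 839, 3050 and 7826 bases past the loop. Hist1h1e and Hist1h1a belong to the latter, with 27 and 7 bases. All these distances are genomic and include any introns. The length that gave whole steps for Hist1h2bc, found by search, was 736 bases, against a span of 8290.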
